A study of Mus musculus with 18 samples.

Results

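The mitochondrial genome of the mouse carries 37 annotated genes, and these were taken as all rows of the count tables whose gene symbol starts with mt-. They are 37 of 54547 gene identifiers, and comprise 13 protein genes, 2 ribosomal RNA (rRNA) genes and 22 transfer RNA (tRNA) genes. Medial prefrontal cortex was taken from C57BL6/J mice at postnatal day 100, and its RNA was measured in 18 libraries, each from 1 animal number, with a method biased towards the 3' ends of transcripts and with single-end sequencing. The controls were 9 mice on control chow, and the other 9 mice received chow with PLX5622, which blocks CSF1R, a receptor that microglia need to survive. The labels give 1 and the same treatment text for all 18 animals, which puts PLX5622 at 1200 mg/kg for 21 days ahead of 44 days of drinking 15% ethanol on alternate days, with tissue collected 24 hours after the last ethanol. That text names PLX5622 for the control animals too, so the diet was read from the chow label and the title. No group without ethanol was included, and an abbreviation in the names of all 18 tables is not explained by the labels. The libraries held 990136 to 1742680 gene counts, with a median of 1384979. Nothing in the labels describes cages, litters or dissection sessions, so the p-values measure the spread between these animals.

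The mitochondrial genome is a small circle, present in many copies per cell, that is transcribed from both strands as long precursor RNAs. Most of its protein and rRNA genes are flanked by tRNA genes, and excision of the tRNAs releases the individual transcripts. Its protein genes code for subunits of respiratory complexes I, III, IV and V, its rRNAs build the mitochondrial ribosome, and complex II and the other subunits are encoded in the nucleus. Neurons draw much of their ATP from this chain.

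Counts were found for 26 of the 37 genes, and 11 had a count of 0 in all 18 libraries. The genes at 0 were mt-Co2 and mt-Co3, which code for 2 of the 3 mitochondrial subunits of cytochrome c oxidase (complex IV), mt-Atp6 and mt-Atp8, the mitochondrial subunits of ATP synthase (complex V), mt-Nd4l, a subunit of NADH dehydrogenase (complex I), and the tRNA genes mt-Ty, mt-Ts1, mt-Td, mt-Tk, mt-Tg and mt-Th. With 24953442 counts in all, a count of 0 allows up to 3 counts, or 0.120 CPM (counts scaled to a library total of 1000000), over the libraries together, and 1.72 to 3.03 CPM in a single library. These limits cover counting error only, and PCR copies of a molecule are not independent. Of the genes at 0, 9 lie inside 1 stretch, chrM:6381-11042 in GRCm38, which has a near-identical nuclear copy at chr1:24611535-24616197 on the minus strand. GENCODE M21 annotates 7 unprocessed pseudogenes in that copy, in the same order as mt-Co1, mt-Co2, mt-Atp6, mt-Co3, mt-Nd3, mt-Nd4l and mt-Nd4. The distances between neighbouring starts are equal in the copy and on chrM for 5 of 6 pairs, and for mt-Nd3 and mt-Nd4l they are 419 and 418 bases. Of 11 mitochondrial genes inside the stretch 9 were at 0, against 2 of 26 outside it (mt-Ty and mt-Th).

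Stretches that end 3 bases before the 3' end of 3 protein genes at 0 are shown beside their pseudogenes, because a read from these bases fits both places equally well. All pairs below run 5′ to 3′ in the sense of the mitochondrial gene, from the GENCODE M21 transcripts of GRCm38. The mt-Co2 bases are chrM:7664-7693 and those of Gm28661 chr1:24614885-24614914. The mt-Atp6 bases are chrM:8575-8604 and those of Gm10925 chr1:24613974-24614003. The mt-Nd4l bases are chrM:10141-10170 and those of Gm10222 chr1:24612407-24612436.
mt-Co2: tatttcgaaaactgatctgcttcaataatt
Gm28661: tatttcgaaaactgatctgcttcaataatt
mt-Atp6: ctagtaagcctatatctacatgataataca
Gm10925: ctagtaagcctatatctacatgataataca
mt-Nd4l: tacgtccaaaatctcaacctactacaatgc
Gm10222: tacgtccaaaatctcaacctactacaatgc

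Over their whole aligned length mt-Co2 (681 bases), mt-Atp6 (678 bases), mt-Co3 (783 bases, copy Gm28437) and mt-Nd4l (294 bases) had 0 mismatches to their copies. mt-Nd3, another complex I subunit, is the inside gene that had counts in every library, 1975 in all, and it differs from its copy Gm28438 by 1 base in 345, T3C, counted from the first base of the gene (T in mt-Nd3, C in the copy). The base that differs is printed as a capital in the first 30 bases of both, chrM:9459-9488 and chr1:24613090-24613119.
mt-Nd3: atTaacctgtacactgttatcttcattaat
Gm28438: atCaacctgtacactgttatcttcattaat

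The 7 pseudogenes together held 15 counts, 14 of them in Gm28438. Across the 37 genes, the share of 30-base windows that also occur in an annotated nuclear transcript was 100% for mt-Co2, 99.9% for mt-Co3, 99.5% for mt-Atp6, 98.9% for mt-Nd4l and 98.1% for mt-Nd3. The last 3 windows of mt-Atp6 and mt-Nd4l and the last 1 of mt-Co3 were not among the shared ones, since the annotated copies end before them. In mt-Nd3 the shared windows ran from base 4 to base 345 of 348, so windows at both ends, 6 in all, were unshared. Genes that cross the edges of the stretch shared fewer windows and did have counts. mt-Nd4 (62.8% shared, 85932 counts) is identical to Gm28439 over its first 876 bases and has no such match in its last 502 windows, up to its 3' end at chrM:11515-11544.
mt-Nd4: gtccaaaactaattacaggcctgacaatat

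mt-Co1 (64.8% shared, 26929 counts) had counts although its last window is shared. It is matched to Gm29216 from base 1054 to its end, with 6 mismatches in 492 bases, all between T1056A and A1066T. That copy holds 29.7% of its windows, and Gm13340, another pseudogene at chr2:22588103-22589647, holds 46.6%. The 533 windows of mt-Co1 found in no annotated nuclear transcript lie between bases 25 and 1095. The genes mt-Rnr1 and mt-Nd1 shared no window with an annotated nuclear transcript. mt-Atp8 shared 8.0% of its windows and the tRNA genes at 0 shared none, except mt-Ty at 13.2% with Cep295. The nuclear copies of the tRNA genes inside the stretch lie between the pseudogenes, and their sequence was not analysed here. Whether reads that match both places were discarded in counting is not given in the sources used here, and its part in the zeros was not tested. A count of 0 therefore does not show that the RNA was absent.

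**Figure D1:**
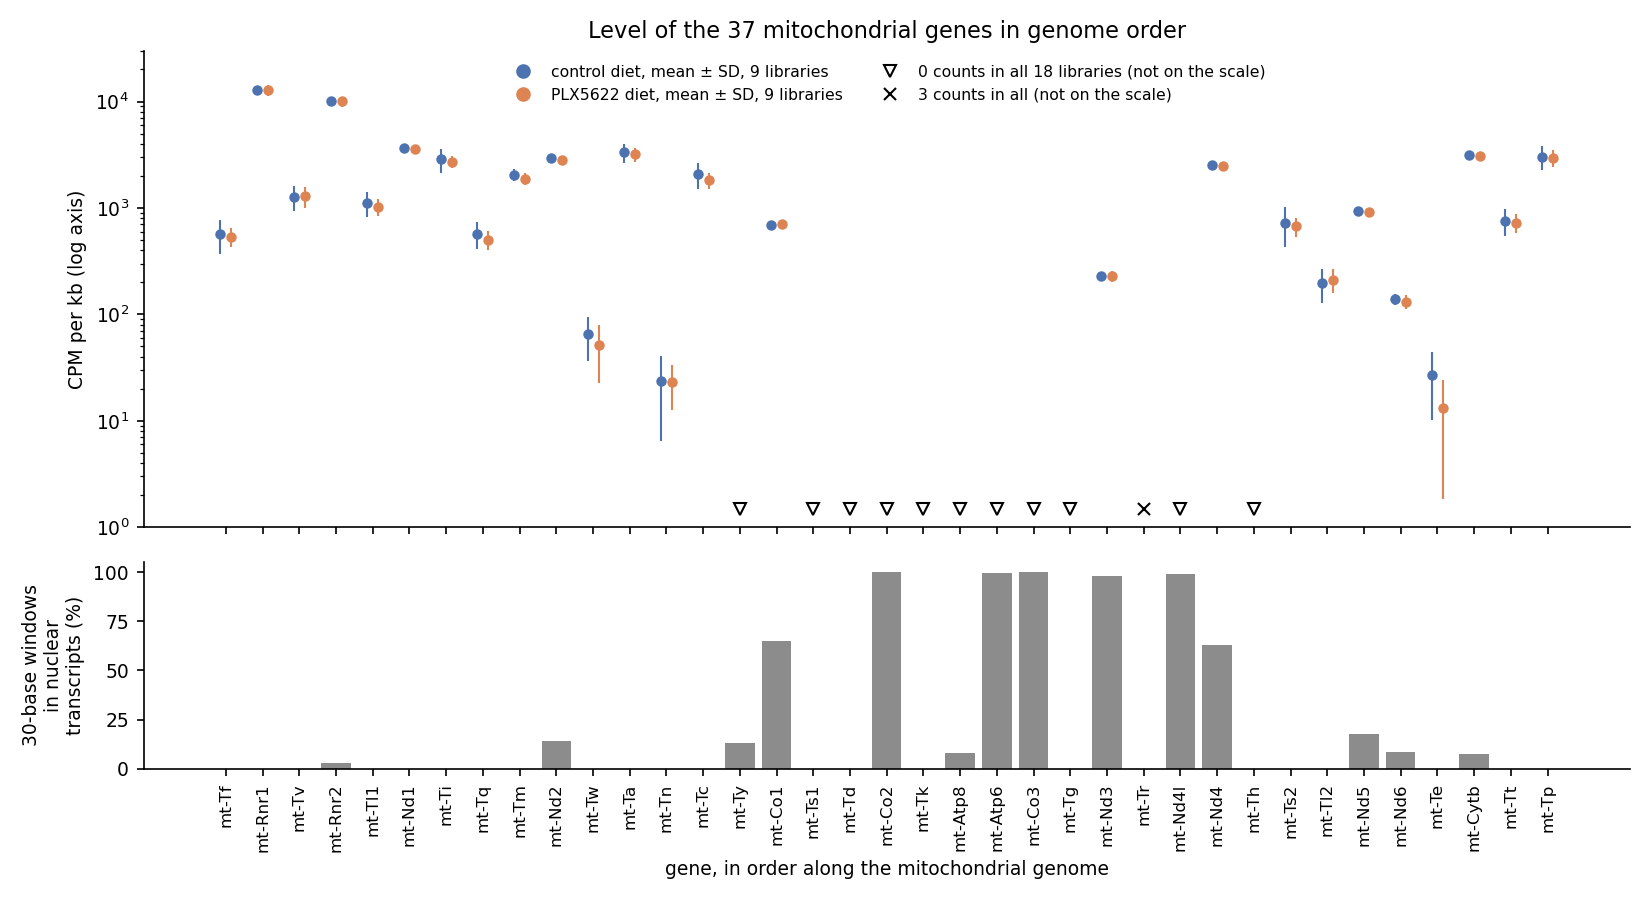
Upper panel, CPM per kb of gene length on a log axis for the 37 genes in genome order, as mean ± SD over the 9 libraries of each diet, with triangles for genes at 0 in all 18 libraries and a cross for mt-Tr (3 counts in all). Lower panel, percent of 30-base windows of each gene that occur in an annotated nuclear transcript: the bars of 98.1% to 100% fall in the run of triangles from mt-Co2 to mt-Nd4l, where mt-Nd3 alone is on the scale.

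The mitochondrial genes took 4.18% to 5.03% of all gene counts in the controls (median 4.63%) and 3.90% to 5.24% with PLX5622 (median 4.66%), and the ranges overlapped. The lowest libraries were control 11 and PLX5622 34, named by diet and animal number, and the highest were control 5 and PLX5622 28. The rRNAs gave the largest part, 2.85% ± 0.207 of all counts in controls (mean ± SD, as for all shares and levels that follow, n = 9) and 2.81% ± 0.306 with PLX5622 (n = 9). The 8 protein genes with counts gave 1.67% ± 0.0790 and 1.62% ± 0.0824, and the 16 tRNA genes with counts 0.128% ± 0.0290 and 0.120% ± 0.0178. By complex, the 6 complex I genes with counts gave 1.199% ± 0.0529 and 1.16% ± 0.0564. mt-Cytb, the complex III gene, gave 0.362% ± 0.0263 and 0.355% ± 0.0226, and mt-Co1, the complex IV gene with counts, 0.106% ± 0.00783 and 0.1099% ± 0.00621. Complex V had no counts. Every one of these differences of means was smaller than the SD of either diet. Among mitochondrial counts alone, rRNA made up 61.3% ± 0.986 in controls and 61.6% ± 1.65 with PLX5622, protein genes 35.97% ± 1.16 and 35.8% ± 1.75, and tRNA genes 2.73% ± 0.481 and 2.64% ± 0.224. The genes on the minus strand of the reference, mt-Nd6 and 8 tRNA genes, gave 1.47% ± 0.246 and 1.42% ± 0.124. These shares of mitochondrial counts describe the genes with counts only, because the protein and tRNA genes at 0 add nothing to them.

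**Figure D2:**
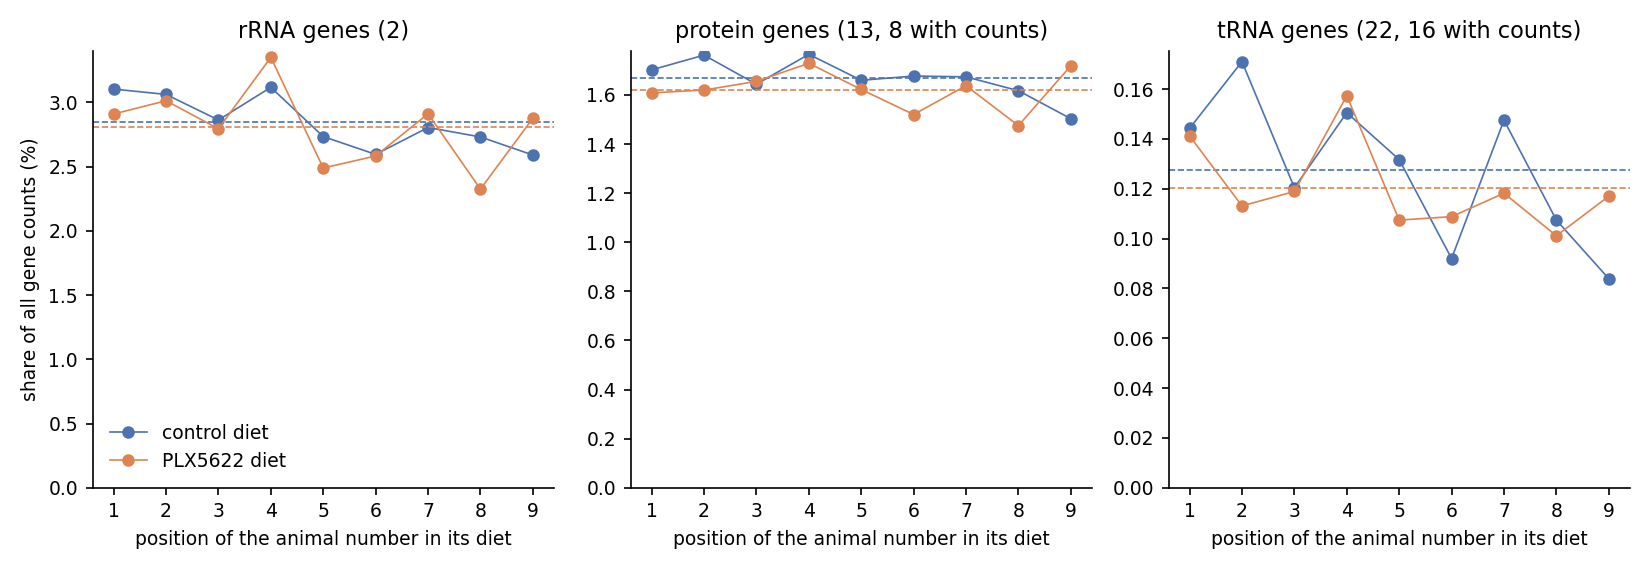
Share of all gene counts (percent, axes from 0) from rRNA, protein and tRNA genes in each library, plotted against the place of its animal number among the 9 of its diet, with dashed lines at the diet means. PLX5622 28 (place 4) and PLX5622 34 (place 8) are the highest and lowest PLX5622 libraries in all 3 panels, and tRNA in controls runs from 0.171% in control 3 (place 2) to 0.0839% in control 11 (place 9).

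Levels were ordered by CPM per kb of gene length, which in a 3'-biased library is only a rough scale of abundance. mt-Rnr1, the small-subunit rRNA (chrM:70-1024), stood first at 12940 ± 840 CPM per kb in controls and 12780 ± 1391 with PLX5622. It was above mt-Rnr2, the large-subunit rRNA (chrM:1094-2675), at 10170 ± 850 and 10020 ± 1101, in 18 of 18 libraries. mt-Rnr2 was in turn above every other gene in 18 of 18. The order of the 2 rRNAs rests on the division by length. Without it mt-Rnr2 was the higher in every library, at 1.22 to 1.37 times the counts of mt-Rnr1 in controls and 1.24 to 1.34 times with PLX5622. Among the 8 protein genes with counts, mt-Nd1 led at 3693 ± 232 CPM per kb in controls, and those at 0 have no place in this order. The next places were held by mt-Ta, mt-Cytb, mt-Tp, mt-Nd2 and mt-Ti, from 3324 to 2859 CPM per kb in controls, and neighbours in this order changed places in 4 to 7 of 18 libraries. mt-Nd4 (2557 ± 163) was above mt-Tm (2054 ± 262) in 18 of 18, while mt-Tm and mt-Tc (2081 ± 565) were each the higher in 9. mt-Nd5 reached 939 ± 89.5, mt-Co1 685 ± 50.7, mt-Nd3 230 ± 21.1 and mt-Nd6 138 ± 16.03 CPM per kb in controls. Windows shared with nuclear transcripts made up 98.1% of mt-Nd3, 64.8% of mt-Co1 and 62.8% of mt-Nd4. Their part in the places of these genes was not tested. mt-Nd5 and mt-Nd6 overlap on opposite strands at chrM:13552-13565, and the strand setting of the count is not given, so reads there cannot be assigned. Other neighbours overlap too, among them mt-Atp8 and mt-Atp6 (chrM:7927-7969), mt-Nd4l and mt-Nd4 (chrM:10167-10173) and, on opposite strands, mt-Co1 and mt-Ts1 (chrM:6870-6872). The part of overlaps in the counts was not tested.

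The tRNA genes covered a wide range although their lengths are alike. Of a run of 4 minus-strand neighbours between mt-Nd2 and mt-Co1, mt-Ta for alanine had 5575 counts in all, mt-Tn for asparagine 41, mt-Tc for cysteine 3211 and mt-Ty for tyrosine 0. The 3' ends of 4 tRNA genes follow, 3 with many counts and 1 with few, none of which shares a 30-base window with an annotated nuclear transcript. Whether these counts came from mature tRNAs, from precursors or from the other strand was not tested. mt-Ta is read from chrM:5018-5047, mt-Tn from chrM:5089-5118 and mt-Tp for proline from chrM:15356-15385, all on the minus strand, and mt-Ti for isoleucine from chrM:3745-3774 on the plus strand.
mt-Ta: tagatgtaggatgaagtcttacagtcctta
mt-Tn: ttttcgtaggtttaattcctgccaatctag
mt-Tp: tggtggtggggagtagctccttcttcttga
mt-Ti: attatagaggttcaagccctcttatttcta

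mt-Tp (4965 counts) and mt-Ti (4776) followed mt-Ta. mt-Tw, mt-Tn, mt-Te and mt-Tr, for tryptophan, asparagine, glutamate and arginine, had 98, 41, 35 and 3 counts in all and did not pass the count filter. The filter left 22 genes for testing, 2 rRNA, 8 protein and 12 tRNA genes.

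The diet comparison asked whether any of these genes differed between PLX5622 and control libraries. None of the 22 was called by edgeR at an adjusted p under 0.05, where 0.398% of all 11051 genes tested were called (5 higher, 39 lower with PLX5622). None reached an unadjusted p under 0.05 either, against 6.79% of all genes. DESeq2 called 0 of 25 mitochondrial genes, where 72 of 18163 genes were called, with 0 at an unadjusted p under 0.05. With limma-voom 0 were called, where 43 of 11051 genes were, with 1 mitochondrial gene at that level. The median log2 fold change of the 22 was -0.06 and 19 were negative, beside a median of 0.00 and 5522 negative of 11051 over all genes. Adjusted p ran from 0.772 to 0.999. The median was nearer 0 without control 2 (-0.035), control 3 (-0.021, 16 negative), control 5 (-0.039) or PLX5622 34 (-0.034, 17 negative). It was farther from 0 without control 8 (-0.08), control 10 (-0.077), control 11 (-0.082), PLX5622 25 (-0.071) or PLX5622 28 (-0.082).

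The rRNAs lay at 11520, 12010 and 13410 CPM (lowest, median, highest) in controls and 10050, 12380 and 14680 CPM with PLX5622 for mt-Rnr1, a log2 fold change of -0.02 ± 0.06 (SE, as for all fold changes and slopes that follow, with a 95% interval of -0.14 to 0.10). mt-Rnr2 gave 14260, 15780 and 17950 CPM in controls and 13210, 16390 and 18830 with PLX5622, or -0.02 ± 0.06. The PLX5622 range enclosed the control range for both rRNAs, with PLX5622 34 lowest and PLX5622 28 highest.

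Among complex I genes, mt-Nd1, a membrane subunit (chrM:2751-3707), lay at 3159, 3549 and 3869 CPM in controls and 3091, 3406 and 3609 with PLX5622. Its log2 fold change was -0.05 ± 0.04 (interval -0.13 to 0.03, edgeR adjusted p = 0.873). mt-Nd2 (chrM:3914-4951) lay at 2825, 3114 and 3397 CPM against 2719, 2953 and 3119, with -0.07 ± 0.04 (interval -0.15 to 0.01, adjusted p = 0.788). The ranges overlapped for both genes, and 8 of 9 PLX5622 libraries were below the control mean of mt-Nd2. mt-Nd4 (-0.06 ± 0.04) and mt-Nd5 (-0.04 ± 0.04), 2 further membrane subunits, had intervals of -0.14 to 0.02 and -0.13 to 0.05. mt-Nd3 (-0.02 ± 0.07) and mt-Nd6 (-0.07 ± 0.08) had about 80.0 and 71.7 CPM in controls and wider intervals, -0.17 to 0.13 and -0.23 to 0.09.

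mt-Cytb, cytochrome b of complex III (chrM:14145-15288), lay at 3192, 3598 and 3983 CPM in controls and 3184, 3522 and 3919 with PLX5622, a log2 fold change of -0.03 ± 0.04 (interval -0.11 to 0.05). mt-Co1, the catalytic subunit of complex IV (chrM:5328-6872), was the one protein gene with a positive value, 0.05 ± 0.04 (interval -0.03 to 0.13, edgeR adjusted p = 0.891), from 873, 1075 and 1144 CPM in controls and 1014, 1101 and 1226 CPM with PLX5622. Its control range was stretched by control 11, the lowest library. The intervals of the 8 protein genes reached no farther than -0.23 and 0.13 on the log2 scale, and those of the 6 other than mt-Nd3 and mt-Nd6 no farther than -0.15 and 0.13. The count ratio of mt-Nd1 to mt-Co1 was 3.35 ± 0.258 in controls (2.91 to 3.62) and 3.11 ± 0.143 with PLX5622 (2.88 to 3.30), and 9 of 9 PLX5622 libraries were below the control mean. This ratio was singled out after its values were seen, among 6 gene ratios computed, and was not tested.

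The 12 tRNA genes had log2 fold changes from -0.19 for mt-Tc to 0.09 for mt-Tl2, a leucine tRNA, with 10 negative and a median of -0.09. mt-Tm, the methionine tRNA that also starts translation (chrM:3845-3913), had the smallest adjusted p of the 22 genes, at 0.772. It lay at 116, 140 and 173 CPM in controls and 111, 125 and 160 CPM with PLX5622, a log2 fold change of -0.14 ± 0.07 (interval -0.28 to 0.01), and the ranges overlapped. mt-Tc (chrM:5192-5257) lay at 78.3, 141 and 181 CPM against 101, 115 and 157, -0.19 ± 0.16 (interval -0.53 to 0.14). mt-Ta lay at 155, 243 and 307 CPM against 179, 217 and 293, -0.06 ± 0.12. The control range enclosed that of PLX5622 for mt-Tc and mt-Ta. mt-Ts2, a serine tRNA, had the widest interval, -0.60 to 0.35, and differences within those bounds are compatible with these libraries.

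**Figure D3:**
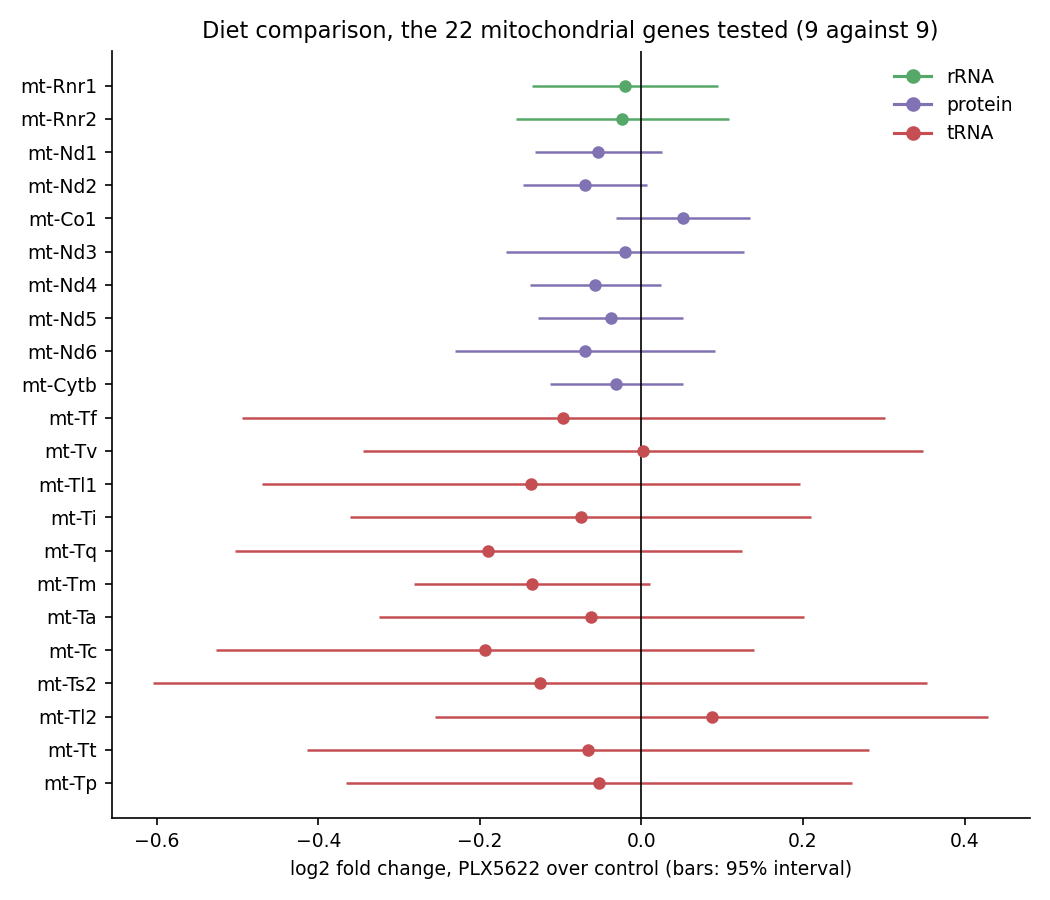
Log2 fold change of PLX5622 over control with its 95% interval for the 22 mitochondrial genes tested (edgeR, 9 libraries each), coloured by class. Every interval spans 0, and those of the tRNA genes are wider than those of the rRNA and protein genes, up to -0.60 to 0.35 for mt-Ts2.

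The libraries of a diet differed from each other more in tRNA genes than in protein genes. The coefficient of variation (CV, SD over mean) of CPM over the 9 control libraries had a median of 26.8% for 12 tRNA genes (12.8% to 41.2%), 7.33% for 8 protein genes (5.57% to 11.6%) and 7.43% for the 2 rRNAs. With PLX5622 the medians were 18.8%, 6.23% and 10.9%. Counting error is larger for genes with fewer counts. The CV was 2.73 times what counting error alone gives for tRNA genes in controls and 1.81 times with PLX5622 (medians). For the protein genes these ratios were 3.95 and 2.93, and for mt-Nd3 and mt-Nd6 in controls 0.952 and 1.14, near counting error. The CV was larger in controls than with PLX5622 for 11 of 12 tRNA genes and 5 of 8 protein genes, and in 0 of 2 rRNAs. The difference in spread between the diets was not tested.

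The same libraries stood at the ends for most tRNA genes. Control 3 was the highest control library for 10 of 12 tRNA genes, and control 11 and control 8 were the lowest for 7 and 5. mt-Tf, for phenylalanine, ran from 19.6 CPM in control 11 to 59.7 CPM in control 3, which is 3.05-fold, and mt-Ts2 from 20.5 CPM in control 8 to 64.1 CPM in control 5, 3.13-fold. Control 8 was also the highest control library for 2 complex I genes, at 3397 CPM for mt-Nd2 and 2105 CPM for mt-Nd5, while it was among the 2 lowest for 10 of 12 tRNA genes. For the other two, mt-Tm (149.5 CPM) and mt-Tl2 (12.69 CPM), it was above the control median. PLX5622 28, the library with the fewest counts (990136), was the highest PLX5622 library for 9 of 12 tRNA genes, and PLX5622 31 and PLX5622 34 were the lowest for 5 each. Control 3, control 8 and control 11 held 1323102, 1418011 and 1430935 counts. The part of depth in these positions was not tested. Without control 8 and PLX5622 28, an alternative added with these values in view, 0 of 22 genes were called in the diet comparison and the median log2 fold change was -0.11.

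**Figure D4:**
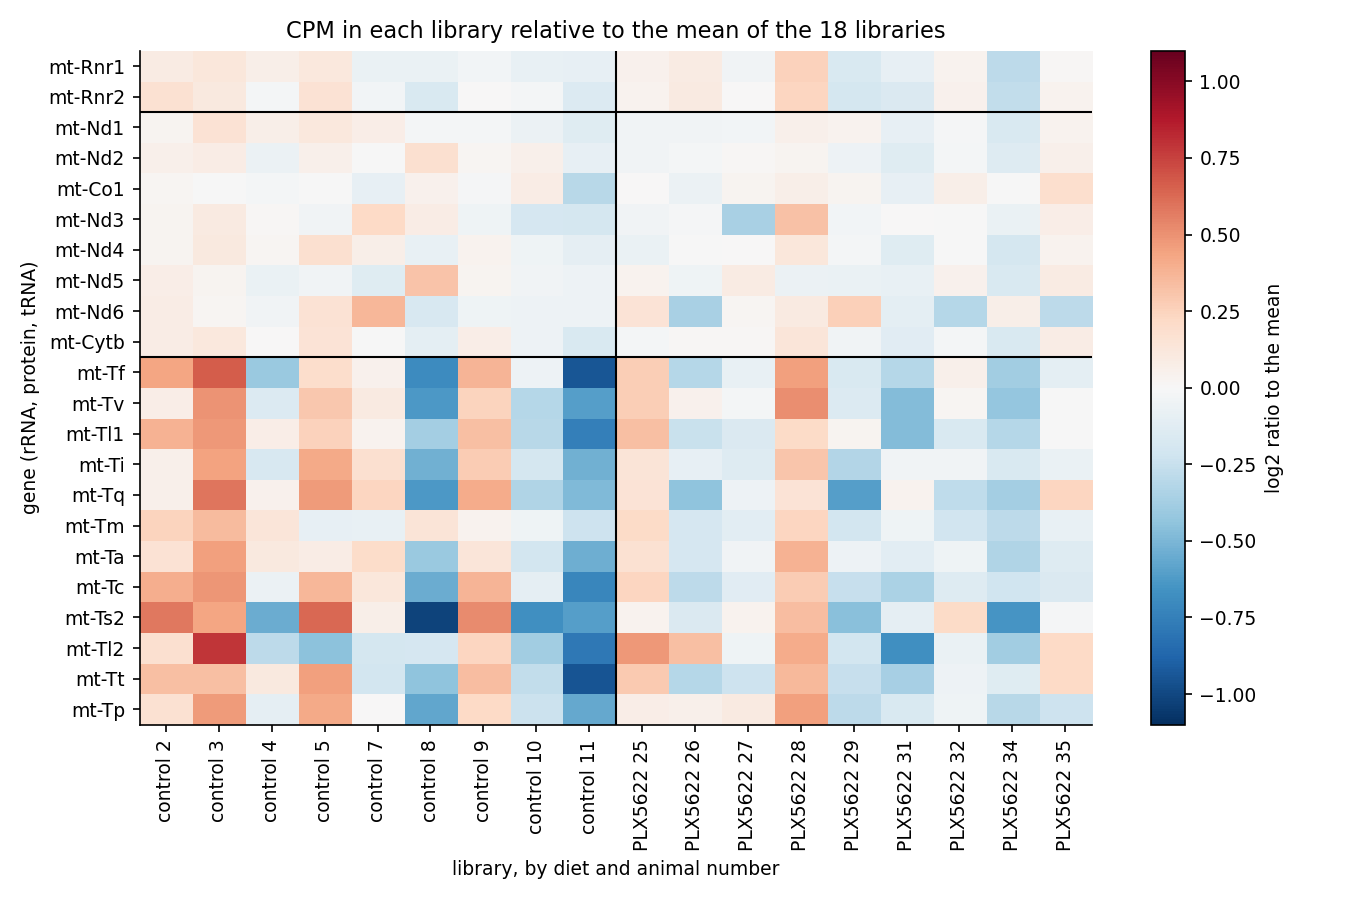
CPM of each of the 22 genes in each library, as the log2 ratio to the mean of that gene over the 18 libraries (red higher, blue lower). The tRNA rows carry the strongest colours, with control 3 and PLX5622 28 red and control 8 and control 11 blue, while the same columns are pale for most protein genes.

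The trend with animal number was fitted as 1 slope per diet, in log2 per animal number, over 9 control numbers from 2 to 11 and 9 PLX5622 numbers from 25 to 35. A running number from 25 to 42 in the names of the tables rises with the animal number within each diet and alternates between the diets. The animal number and that running number therefore cannot be told apart within a diet, and what either stands for is not stated. In the control diet all 22 slopes were negative, with a median of -0.05, beside 50.2% negative and a median of 0.00 over all genes. None was called by edgeR (smallest adjusted p = 0.286, for mt-Tl1), where 0.0543% of all genes were called. At an unadjusted p under 0.05 there were 16 of 22, all lower with rising number, against 3.79% of all genes. The 22 genes share precursors and libraries, so they are not independent, and gene tallies here and in the other comparisons are only descriptive. DESeq2 called 0 of 26 mitochondrial genes, and 0 of all 24284 genes, with 16 mitochondrial genes at that level.

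By class, the 12 tRNA genes had slopes from -0.10 (mt-Ts2) to -0.04 (mt-Tm) with a median of -0.08 and 11 at an unadjusted p under 0.05. The slopes of the rRNAs were -0.03 ± 0.01 for both, and the 8 protein genes had a median of -0.02, with 3 at that level (mt-Nd1, mt-Nd4 and mt-Cytb). mt-Tl1, a leucine tRNA that lies between mt-Rnr2 and mt-Nd1 (chrM:2676-2750), had a slope of -0.09 ± 0.02, and its lowest, median and highest CPM in controls were 47.5 in control 11, 84.5 and 111.9 in control 3. mt-Ta had -0.07 ± 0.02, and mt-Tt for threonine -0.09 ± 0.03 (edgeR adjusted p = 0.380 and 0.360). The values did not fall step by step, since control 8 was low and control 9, with the next number, was above the control median for both mt-Ta (247 CPM) and mt-Tp (233 CPM).

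The control calls depended on single libraries and on the filter. Without control 9, 5 tRNA genes were called by edgeR, where 0.407% of 11062 genes were called: mt-Tl1 (-0.12 ± 0.02, adjusted p = 0.00027), mt-Tt (-0.12 ± 0.02, 0.003), mt-Tf (-0.12 ± 0.03, 0.019), mt-Ta (-0.085 ± 0.02, 0.030) and mt-Tc (-0.11 ± 0.02, 0.040). With no count filter 3 were called, mt-Ta, mt-Tl1 and mt-Tt, where 0.0741% of 24284 genes were. Without control 8 and PLX5622 28 mt-Ta was called, where 0.0813% of 11074 genes were. Without control 11, which has the highest control number, 7 genes were left at an unadjusted p under 0.05 and 19 slopes were negative, and without control 3 there were 10 at that level. The smallest adjusted p over all these alternatives ran from 0.00012 to 0.927.

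In the PLX5622 diet 20 of 22 slopes were negative, with a median of -0.02, and 0 were called by edgeR (smallest adjusted p = 0.618), where 0.0814% of all genes were called. At an unadjusted p under 0.05 stood mt-Rnr1 (-0.02 ± 0.01), mt-Rnr2 (-0.02 ± 0.01) and mt-Tm (-0.03 ± 0.01), against 3.53% of all genes in that direction. DESeq2 called 0 of 26 mitochondrial genes and 3 of all 24284 genes, with 1 mitochondrial gene at that level. The edgeR count at that level was 0 without PLX5622 34 (14 slopes negative, median -0.01) and 1 without PLX5622 25 (18 negative, median -0.013) or PLX5622 28. It was 5 without PLX5622 26 or control 9, and 6 without PLX5622 35 (22 negative, median -0.035). Over all genes, 783 of 11051 slopes in this diet had an unadjusted p under 0.05, in either direction. Among cell type markers 1 of 5 neuronal, 1 of 4 astrocyte, 1 of 5 microglia and 0 of 3 endothelial genes stood at that level. The oligodendrocyte markers had 4 of 4 positive slopes in this diet (median 0.053, 2 at that level, 0 called). Their summed level was 929 to 1997 CPM, with none of the 4 at 0. In the control diet, with 1122 to 1681 CPM, 4 of 4 were negative (median -0.008), and their part in the mitochondrial slopes was not tested. The tRNA median was -0.03, with a range of -0.056 for mt-Tl2 to -0.003 for mt-Tq, and mt-Co1 (0.008) and mt-Nd3 (0.005) had the 2 positive slopes.

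The difference of the slopes, PLX5622 minus control, was tested directly. No gene was called by edgeR among the 22 or among all genes (0%), with 1 mitochondrial gene, mt-Tt, at an unadjusted p under 0.05 (0.09 ± 0.04, interval 0.01 to 0.16, adjusted p = 0.984), against 4.52% of all genes. That count was 7 without control 9 (smallest adjusted p = 0.342), 5 with no count filter, 3 without control 2 or PLX5622 25, 2 without control 10 or PLX5622 34, and 0 without control 11, PLX5622 26 or PLX5622 35. The median of the 22 was 0.027, and ran from 0.01 without PLX5622 35 to 0.039 without control 2. The difference was positive for 20 of 22 genes and for 12 of 12 tRNA genes, with a tRNA median of 0.045. The slopes of the diets were thus not shown to differ, and the intervals of single tRNA genes reach 0.21 (mt-Ts2).

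**Figure D5:**
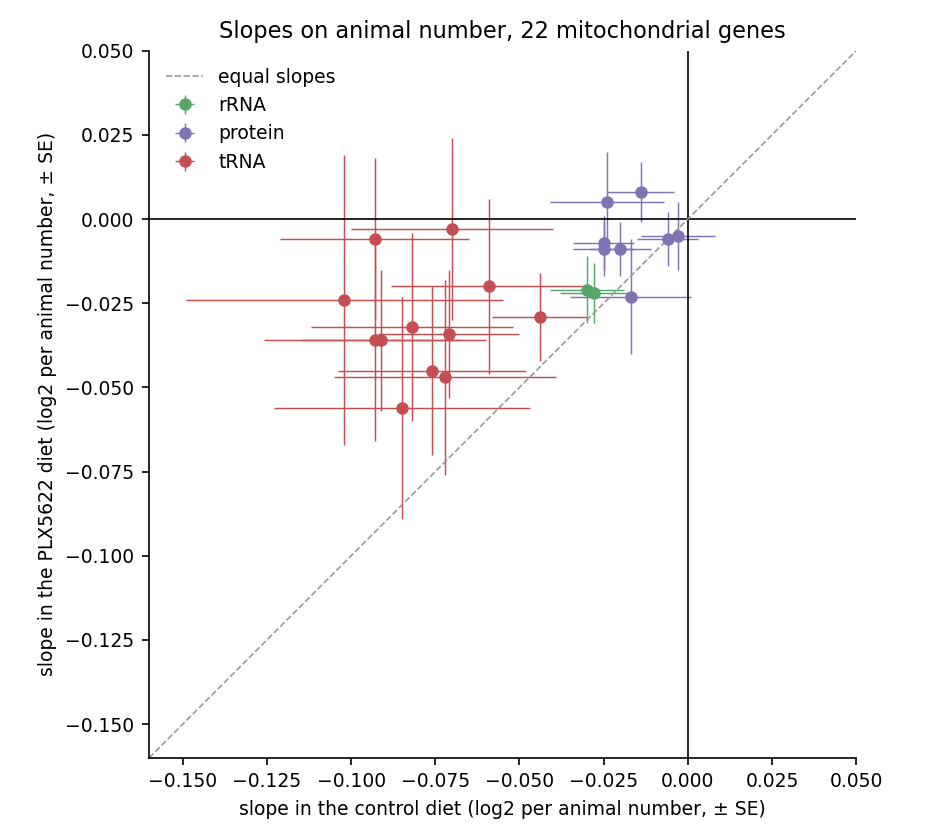
Slope on animal number in the control diet (horizontal) and in the PLX5622 diet (vertical), log2 per animal number ± SE, for the 22 genes by class, with the line of equal slopes dashed. All points lie left of 0, and the tRNA genes lie farthest left, from -0.10 to -0.04, above the line of equal slopes.

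Nuclear genes that serve the same complexes and the expression of the mitochondrial genome were read from lists chosen with earlier results of these data known. Of 35 nuclear complex I genes tested, of 37 listed, 1 was higher with PLX5622 (Ndufa1, an accessory subunit, 135 ± 17.7 to 163 ± 12.7 CPM, 0.26 ± 0.06 log2, edgeR adjusted p = 0.021) and 0 were lower, where 0.0452% of all genes were called higher, and the median was -0.005. None was called in complexes II (4 tested, median 0.08), III (8, 0.04), IV (10, 0.03) and V (14, -0.03). Genes for mitochondrial transcription and replication gave 0 of 7, with Tfam, which packages the genome and starts its transcription, at 0.17 ± 0.11 and the polymerase Polg at 0.18 ± 0.12. Genes for mitochondrial RNA processing and stability gave 0 of 26, with Slirp, a partner of the RNA-binding protein Lrpprc, at 0.20 ± 0.10. Mitochondrial translation factors gave 0 of 9, aminoacyl-tRNA synthetases 0 of 14, regulators of biogenesis 0 of 6 and mitochondrial ribosomal proteins 0 of 68 (median 0.02). In the control trend 0 genes of these lists were called, where 0.0543% of all genes were. Negative slopes, 50.2% of all genes, were counted in 32 of 35 complex I, 3 of 4 complex II, 8 of 8 complex III, 9 of 10 complex IV and 9 of 14 complex V genes. They were counted in 6 of 7 genes for transcription and replication, 13 of 26 for RNA processing and stability, 3 of 9 translation factors, 5 of 14 synthetases, 2 of 6 regulators of biogenesis and 44 of 68 ribosomal protein genes. Control slopes at an unadjusted p under 0.05 by edgeR, in either direction, numbered 720 of 11051 over all genes. The tally was 9 of 35 for complex I, 0 of 4 for II, 0 of 8 for III, 5 of 10 for IV and 3 of 14 for V. It was 7 of 68 for ribosomal protein genes, 1 of 26 for RNA processing and stability, and 0 in the remaining lists.

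Markers of the labelled tissue were present in every library, with the summed neuronal markers at 5747 to 6224 CPM in controls and 5805 to 6201 CPM with PLX5622. Of the microglia markers, 5 of 5 were lower with PLX5622 (0.353% of all genes were called lower), at a summed 180 to 230 CPM in controls and 35.7 to 64.0 CPM with PLX5622, where fewer cells and less RNA per cell cannot be told apart in bulk tissue. Cx3cr1, a microglial chemokine receptor, changed by -2.07 ± 0.12 log2 (edgeR adjusted p = 1.4e-23). No neuronal, astrocyte, oligodendrocyte, endothelial, choroid plexus, striatal or red blood cell marker was called, where 0.398% of all genes were. The choroid plexus marker Ttr changed by 1.49 ± 0.44 log2 (5.2 ± 3.19 to 15.3 ± 9.65 CPM, edgeR adjusted p = 0.283) and Enpp2 by 0.02 ± 0.05. Of the striatal markers, Ppp1r1b changed by 0.19 ± 0.09 (edgeR adjusted p = 0.708) and Drd1 by -0.27 ± 0.18. Whether dissection differed between the diets was not tested.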

How the data were processed

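Per the labels, 18 libraries of total RNA were sequenced as single ends, 9 per diet. The deposited values are whole-number counts per Ensembl gene, 1 table per library, made by the authors. Tools named in the submitters' processing notes are HTSeq 0.11.0, Bowtie2 2.3.4.3, DESeq2 1.10.1, FastQC 0.11.8 and R 3.5.1, with the builds GRCm38.p6 and mm10. What each did, the strand setting and the treatment of reads with several matches is not stated there. Of the identifiers, 53620 matched GENCODE M21, and 927 (0.0467% of counts) did not.

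CPM are counts over library totals. Counts were tested with edgeR 4.0.16 (R 4.3.3): filterByExpr (minimum count 10, minimum total 15), TMM, robust quasi-likelihood fit, Benjamini-Hochberg adjustment over 11051 genes, calls at an adjusted p under 0.05. The trend model held diet and 1 slope of animal number per diet. Sums over genes were not tested. Alternatives were DESeq2 1.42.0, limma-voom (limma 3.58.1), other scalings and filters, the place of the animal number, and leaving out each library; a fit without control 8 and PLX5622 28 and a diet fit with blocks of adjacent running numbers were added after seeing the data. The scripts were tested on simulated data. Groups come from the titles. All 37 genes were named whatever their result, with at most 3 genes of smallest p per nuclear list. Members and lists were chosen with earlier results of these data known. Gene and pseudogene sequences are GENCODE M21 transcripts; pseudogenes were compared by exact 30-base windows and by alignment.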

Additional observations from a re-analysis of the deposited data

Results flagged for a closer look

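The sets examined, by diet, were each gene tested and the shares of all counts from all mitochondrial, protein, rRNA, tRNA and complex IV genes. Among 54 such sets of 9 libraries, 4 had 1 library far from the other 8, and chance gives this in about 1 in 20 sets. In control 11 mt-Co1 was at 872.9 CPM, with the next control at 1013 CPM and the median at 1075 CPM. The complex IV share of that library, 0.08729% of all counts, is the same measurement, because mt-Co1 is the complex IV gene with counts. In control 8 mt-Nd5 was at 2105 CPM, with the next control at 1784 CPM and the median at 1649 CPM. In PLX5622 28, the library with the fewest counts, mt-Tp was at 273.7 CPM, with the next PLX5622 library at 214.6 CPM and the median at 193.4 CPM.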

How the results depend on the processing

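The diet comparison gave 0 of the mitochondrial genes called under all alternatives run, and the PLX5622 slope and the difference of the slopes likewise. The count for the control slope moved from 0 to 3 with no count filter, to 1 without control 8 and PLX5622 28, and ranged from 0 to 5 when each library was left out in turn. No share difference moved by as much as the SD pooled over the diets. The rRNA share difference did change sign: it was -0.0387 percentage points and ranged from -0.107 to 0.0214 when each library was left out. Changes of sign among the genes tested were all in values near 0 that were not called. The diet value of mt-Tv (0.002) became -0.001 with a mean of at least 50 counts and -0.121 without control 8 and PLX5622 28, where mt-Nd5 became 0.011 and the PLX5622 slope of mt-Tq 0.001; with library sizes alone that slope was 0. When each library was left out in turn, the diet values ranged from -0.187 to 0.001 for mt-Tf, -0.058 to 0.014 for mt-Rnr1, -0.06 to 0.079 for mt-Tv, -0.059 to 0.009 for mt-Rnr2, -0.119 to 0.001 for mt-Ta, -0.058 to 0.022 for mt-Nd3, -0.057 to 0.007 for mt-Nd5 and -0.113 to 0.015 for mt-Tp. The control slopes ranged from -0.01 to 0.001 for mt-Nd2, -0.022 to 0.002 for mt-Co1 and -0.01 to 0.002 for mt-Nd5. The PLX5622 slopes ranged from -0.015 to 0.002 for mt-Nd1, -0.037 to 0.022 for mt-Tq, -0.016 to 0.001 for mt-Nd2, -0.003 to 0.013 for mt-Co1, -0.005 to 0.012 for mt-Nd3, -0.019 to 0 for mt-Nd4, -0.04 to 0.002 for mt-Ts2, -0.018 to 0.003 for mt-Nd5 and -0.032 to 0.024 for mt-Tt. The cause of these changes was not tested. No paired analysis was possible because the labels give the diets no replicate number in common. A diet fit with 9 blocks of adjacent running numbers from the table names, which the labels do not tie to a shared batch, was added after seeing the data; it called 0 of 22, with 1 at an unadjusted p under 0.05, 19 negative and a median of -0.052. With 990136 to 1742680 counts per library, several tRNA genes rest on fewer than 100 counts in each. For the genes at 0 only the limits from counting error can be given, and a count of 0 does not show that the RNA was absent.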
